A study of Mus musculus with 3 samples.

Results

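Indian hedgehog and parathyroid hormone-related protein (PTHrP) signalling was followed through 9 genes of the fracture callus: the ligand genes *Ihh* and *Pthlh*, the receptor genes *Ptch1*, *Smo*, and *Pth1r*, the transcription factor genes *Gli1*, *Gli2*, and *Gli3*, and *Hhip*, which encodes a decoy that binds hedgehog ligands. They were listed by symbol and matched to the gene names of the deposited tables, where all 9 of 32285 genes had 1 row each. The cells came from the callus of C57BL/6 mice with a femoral fracture, at day 7, day 10, and day 14 after the fracture. The study's methods describe a steel pin placed in the marrow cavity and buprenorphine given before and after surgery. Their account of the sequenced cells names no other treatment. Before capture, live cells lacking CD31, CD45, and TER119 were sorted, and each day gave 1 library. The study used male and female mice together. The age of the mice, and how many of them went into a library, were not given in the labels. With 1 library a day there was no replicate error and no test, so each difference between days is a difference between 2 libraries.

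In the growth plate, *Ihh* is made by chondrocytes that are leaving the cell cycle, and its protein acts on neighbouring chondrocytes and on the perichondrium, where it drives osteoblast formation. Binding to PTCH1 frees SMO, which lets GLI proteins turn on target genes, among them *Ptch1*, *Gli1*, and *Hhip*, so these 3 transcripts are the usual readout of a cell that is responding. PTHrP, made toward the periarticular end and in the perichondrium, acts through PTH1R on chondrocytes to delay hypertrophy and so limits how many cells make *Ihh*. Fracture callus forms cartilage and then bone by a related sequence.

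Each value is a number of UMIs, single mRNA molecules read at their 3′ end, and a level is the UMIs of a gene summed over a set of cells, per 1000000 UMIs of those cells (CPM). Bounds in parentheses after a value are exact 95% intervals, Poisson for a level, Clopper-Pearson for a share, and binomial for a log2 ratio, and they cover counting error only. Cells with more UMIs of 9 matrix genes such as *Col1a1* and *Col2a1* than of 11 hematopoietic genes such as *Ptprc* were called matrix producing. They were 295 of 7017 cells within the study's limits at day 7, 6589 of 6593 at day 10, and 9734 of 9853 at day 14, so the day 7 library went against its label of mesenchymal cells. Their median depth was 17965, 17372, and 15853 UMIs at day 7, day 10, and day 14. Each pair of libraries shared between 29 and 42 cell barcodes, and leaving out those cells moved none of 74 shares of UMIs and log2 ratios between ranges past its interval. The other values were not recomputed without them.

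The matrix-producing cells were divided by 4 markers at a threshold of 1000 CPM per cell, and no member took part in the division. The resulting sets are ranges of a level and not cell types. *Aspn* is a leading gene of the *Postn*+ osteoprogenitors, *Cnmd* cartilage, *Col10a1* hypertrophic chondrocytes, and *Ifitm5* osteoblasts. *Aspn*-high cells numbered 31, 1595, and 3589 at day 7, day 10, and day 14. Cells high for both *Aspn* and *Cnmd* numbered 4, 540, and 354, and *Cnmd*-high cells 67, 2329, and 1488. Cells high for *Cnmd* and *Col10a1* numbered 5, 344, and 360, *Col10a1*-high cells without high *Cnmd* 12, 532, and 1800, and *Ifitm5*-high cells 1, 81, and 275. Pericyte-like *Rgs5*-high cells (76 at day 10 and 222 at day 14) formed a range of their own, and 175, 1092, and 1646 cells were below the threshold for all 5 genes, *Rgs5* included. Levels along a marker were taken over all matrix-producing cells, *Rgs5*-high cells among them. A cell high for several of these genes was placed by the first that applied: *Rgs5*, *Ifitm5*, *Cnmd* with *Col10a1*, *Col10a1*, *Aspn* with *Cnmd*, *Cnmd*, *Aspn*. *Ifitm5*-high and *Col10a1*-high cells could thus also be high for *Aspn*. At day 14, 137 cells were high for *Col10a1* and *Aspn* but not for *Cnmd* or *Ifitm5*. Of the fixed marker lists, the 8 cartilage genes summed to 66768 CPM in *Cnmd*-high cells and 3272 CPM in *Aspn*-high cells at day 10, and the 6 osteogenic genes to 74188 CPM in *Ifitm5*-high cells. The cells below all thresholds carried 35175 CPM of the osteogenic list at day 10 and 27782 CPM at day 14, chiefly *Ibsp* (33867 and 26132 CPM). A threshold cuts through a continuous level, and at day 10 the cells within 1.5-fold of it were 13.5% of matrix-producing cells for *Aspn*, 8.59% for *Cnmd*, 2.09% for *Col10a1*, and 0.895% for *Ifitm5*.

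The transcript of the hedgehog ligand was highest in *Col10a1*-high cells. *Ihh* (ENSMUSG00000006538, chr1:74945315-74951672, minus strand of mm10) reached 738 CPM (719.6 to 756) in *Col10a1*-high cells without high *Cnmd* at day 10 and 700.3 CPM (691 to 710.0) at day 14. Cells high for both *Cnmd* and *Col10a1* had 373 CPM (359 to 387) and 421 CPM (406 to 436). *Cnmd*-high cells without high *Col10a1* had 33.7 CPM (32.0 to 35.4) and 54.4 CPM (51.9 to 57.1). *Aspn*-high cells lay at the bottom with 2.06 CPM (1.53 to 2.72) and 4.35 CPM (3.80 to 4.97), and the intervals of these 4 ranges did not overlap on either day. The small day 7 set had the same order, with 1175 CPM (1040.4 to 1323) in 12 *Col10a1*-high cells, 41.6 CPM (31.5 to 54.0) in 67 *Cnmd*-high cells, and 0 UMIs in 31 *Aspn*-high cells, which allows up to 5.46 CPM (3 UMIs).

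Counted by molecule, both *Col10a1* ranges together held 77.9% (77.1% to 78.7%) of 11703 *Ihh* UMIs at day 10 and 88.1% (87.7% to 88.5%) of 26176 at day 14, while they held 14.0% and 23.3% of the UMIs of all genes. The share of *Ihh* in *Cnmd*-high cells was 13.1% at day 10 and 6.44% at day 14. *Col10a1*-high cells were more numerous at day 14, and their *Ihh* level on day 14 over day 10 had a log2 ratio of -0.07 (-0.12 to -0.03). After each cell was thinned to 2000 UMIs, 53.1% (48.6% to 57.5%) of *Col10a1*-high cells at day 10 and 51.2% (48.8% to 53.6%) at day 14 held an *Ihh* UMI, against 77.6% and 76.6% before thinning. Thinning left out 25 and 69 shallower cells. Hematopoietic cells, which should lack the gene, had 0.0801% at day 7, with 474 left out and a median depth of 4935 UMIs.

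Along *Col10a1*, *Ihh* was higher at each step on both days. Cells without a *Col10a1* UMI had 16.2 CPM of *Ihh* at day 10, cells at 1000 to under 3000 CPM of *Col10a1* had 241 CPM, and cells at 10000 CPM and over had 854 CPM. The same steps gave 11.5, 277, and 863 CPM at day 14. Along *Cnmd* the course had a peak: *Ihh* was 50.8 CPM in cells without *Cnmd* at day 10, 265 CPM at 300 to under 1000 CPM of *Cnmd*, and 35.5 CPM at 3000 to under 10000 CPM. At day 14 these steps had 111, 318, and 67.0 CPM. Along *Aspn* it was lower at each of the first 5 steps, from 305 CPM in cells without *Aspn* to 1.77 CPM at 3000 to under 10000 CPM at day 10, and from 446 to 7.62 CPM at day 14.

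*Ihh* was also found at low levels outside the cartilage ranges. In *Ifitm5*-high cells the level was 35.1 CPM (26.0 to 46.4) on day 10 and 14.3 CPM (10.9 to 18.3) on day 14, and their *Ihh* UMIs were 49 and 61. These cells could also be high for *Col10a1* or *Cnmd*. They held 906 and 977 *Col10a1* UMIs, with 0.0541 and 0.0624 *Ihh* UMIs for each. In *Rgs5*-high cells *Ihh* was 3.97 and 52.1 CPM. Hematopoietic cells of the day 14 library had 20.9 CPM. In these *Rgs5*-high and hematopoietic cells *Col10a1* stood at 456 and 369 CPM at day 14, and there were 0.114 and 0.0566 *Ihh* UMIs for each *Col10a1* UMI, against 0.0330 in *Col10a1*-high cells. The part of free RNA in the low *Ihh* levels was not tested.

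**Figure D1:**
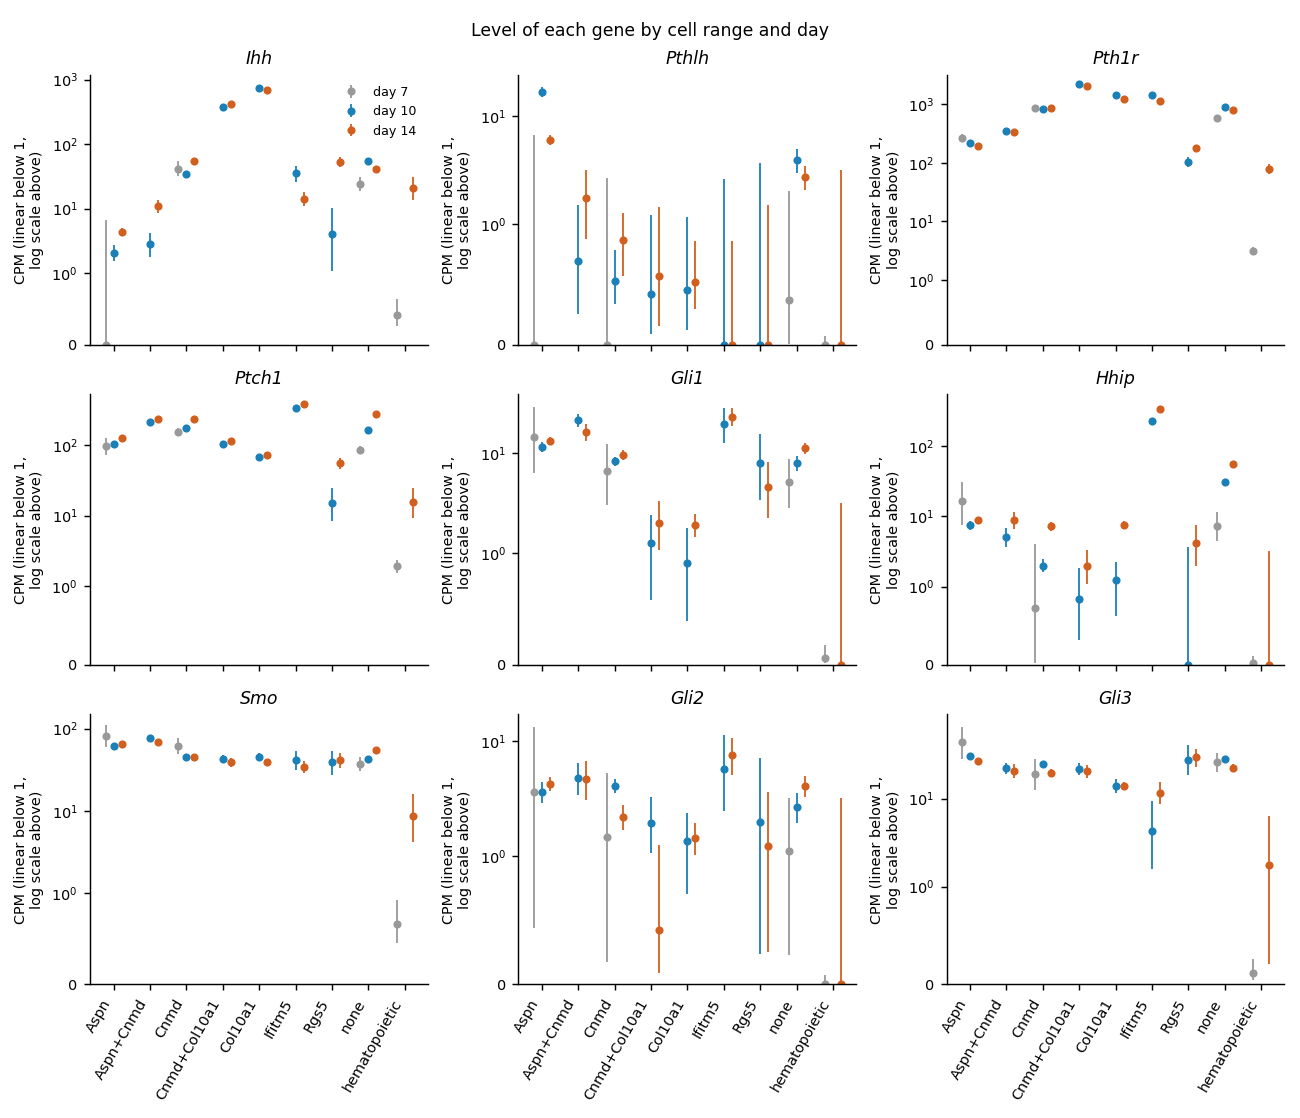
Level of each of the 9 genes (CPM, linear below 1 and logarithmic above) by cell range at day 7, day 10, and day 14, with exact Poisson 95% intervals for counting error. Ranges with under 20 cells are not drawn. At day 10 and day 14, *Ihh* is highest in *Col10a1*-high cells (738 and 700.3 CPM), *Pthlh* in *Aspn*-high cells, and *Hhip* in *Ifitm5*-high cells.

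The PTHrP gene *Pthlh* (ENSMUSG00000048776, chr6:147252101-147264183, minus strand) was rare and lay mostly at the other end, in *Aspn*-high cells. It had 1 UMI in matrix-producing cells at day 7, 508 UMIs at day 10, and 425 at day 14. *Aspn*-high cells held 79.7% (76.0% to 83.1%) of them at day 10 and 71.8% (67.2% to 76.0%) at day 14, and these cells had 21.4% and 32.9% of all UMIs. The level in *Aspn*-high cells was 16.7 CPM (15.1 to 18.4) at day 10 and 6.04 CPM (5.38 to 6.75) at day 14, a log2 ratio of -1.47 (-1.69 to -1.25) for day 14 over day 10. In *Cnmd*-high cells it was 0.527 and 0.872 CPM from 24 and 27 UMIs, and in *Col10a1*-high cells 0.457 and 0.523 CPM from 4 and 15 UMIs. *Ifitm5*-high cells had 0 UMIs on both days, which allows up to 2.15 CPM at day 10 and 0.702 CPM at day 14.

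*Pthlh* UMIs were gathered in few cells: 253 of 6589 matrix-producing cells had any at day 10 and 273 of 9734 at day 14, with up to 14 and 20 in 1 cell. Among *Aspn*-high cells thinned to 2000 UMIs, 3.35% (2.52% to 4.35%) at day 10 and 1.04% (0.731% to 1.43%) at day 14 had a UMI, against 11.6% and 5.77% before thinning. Of 6244 hematopoietic cells at day 7, 0 did, which allows up to 0.0480%. Its level was higher at each *Aspn* step from 300 CPM on, with 2.43, 9.28, and 15.9 CPM at 300, 1000, and 3000 CPM of *Aspn* at day 10 and 1.60, 4.21, and 5.94 CPM at day 14. It was also read along *Prrx1* and *Ctsk*, genes of periosteal progenitors. At day 10, 88 cells with *Prrx1* at 1000 to under 3000 CPM had 103 CPM of *Pthlh* and cells without *Prrx1* 0.779 CPM, and the 159 cells in the same step of *Ctsk* had 50.1 CPM. At day 14 the *Prrx1* and *Ctsk* steps had 16.8 and 6.85 CPM. So *Pthlh* was highest in the cells with most *Prrx1* or *Ctsk*, and more so at day 10. The *Prrx1* step had a median depth of 9551 UMIs at day 10 and 7124 at day 14, below that of all matrix-producing cells.

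The receptor for PTHrP had a different distribution from its ligand. *Pth1r* (ENSMUSG00000032492, chr9:110722085-110747145, minus strand) was highest in cells high for both *Cnmd* and *Col10a1*, with 2281 CPM (2246 to 2316) at day 10 and 2035 CPM (2002 to 2069) at day 14. *Col10a1*-high cells had 1439 and 1258 CPM, *Ifitm5*-high cells 1443 and 1145 CPM, *Cnmd*-high cells 823 and 877 CPM, and cells high for *Aspn* and *Cnmd* 355 and 344 CPM. The *Aspn*-high cells that held most *Pthlh* had the lowest level of these 6 ranges, 221 and 193 CPM. The intervals of neighbours in this order did not overlap, except for *Col10a1*-high and *Ifitm5*-high cells at day 10. Relative to *Cnmd*-high cells the log2 ratio in cells high for both markers was 1.47 (1.44 to 1.50) at day 10 and 1.21 (1.18 to 1.24) at day 14. Along *Col10a1* it peaked at 1000 to under 3000 CPM at day 10 (2119 CPM) and was 1649.7 CPM at 10000 CPM and over, whereas at day 14 it was 1357 CPM at 1000 to under 3000 CPM, 1330 CPM in the next step, and 1472 CPM in the last, the highest. Thinned to 2000 UMIs, 95.8% (93.1% to 97.7%) of cells high for both markers at day 10 had a UMI and 27.1% (24.9% to 29.3%) of *Aspn*-high cells did, with 0.801% in hematopoietic cells at day 7.

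*Smo* (ENSMUSG00000001761, chr6:29735503-29761365, plus strand), which passes the hedgehog signal on, stayed within 2-fold in every comparison of the ranges below. Its level was 61.5 and 65.5 CPM in *Aspn*-high cells at day 10 and day 14, 77.1 and 68.6 CPM in cells high for *Aspn* and *Cnmd*, 45.2 and 45.6 CPM in *Cnmd*-high cells, 42.6 and 39.0 CPM in cells high for *Cnmd* and *Col10a1*, 45.1 and 39.0 CPM in *Col10a1*-high cells, and 41.5 and 34.4 CPM in *Ifitm5*-high cells. Between *Col10a1*-high and *Cnmd*-high cells the log2 ratio was -0.0036 (-0.16 to 0.15) at day 10 and -0.23 (-0.34 to -0.11) at day 14.

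Among the 3 response genes, *Ptch1* (ENSMUSG00000021466, chr13:63508328-63573598, minus strand) and *Hhip* (ENSMUSG00000064325, chr8:79965851-80058006, minus strand) were both highest in *Ifitm5*-high cells, so the 250 bases before their RefSeq start sites are shown (GRCm38.p6, 5′ to 3′, both on the minus strand). The *Ptch1* entry, chr13:63565736-63565985, lies inside the span the count table's annotation gives the gene, and the *Hhip* entry, chr8:80058009-80058258, just before its start. No letter is in capitals because the Gli motif GACCACCCA was not found on either strand, nor with 1 letter changed.
Ptch1: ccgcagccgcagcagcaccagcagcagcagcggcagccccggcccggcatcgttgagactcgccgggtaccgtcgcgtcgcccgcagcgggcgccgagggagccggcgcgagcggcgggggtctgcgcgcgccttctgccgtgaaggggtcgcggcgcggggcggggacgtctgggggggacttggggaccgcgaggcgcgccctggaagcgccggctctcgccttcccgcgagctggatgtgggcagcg
Hhip: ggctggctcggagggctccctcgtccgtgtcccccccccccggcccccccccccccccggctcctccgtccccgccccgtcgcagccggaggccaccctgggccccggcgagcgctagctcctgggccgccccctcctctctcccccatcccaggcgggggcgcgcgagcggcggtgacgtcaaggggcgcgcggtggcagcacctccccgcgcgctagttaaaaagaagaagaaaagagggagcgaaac
Both windows are rich in G and C (78.4% and 76.0%). The 10 windows of the 8 members with a RefSeq entry, these 2 among them, all lacked the motif, and no window was read for *Gli1*. Of 32851 windows of this length, 0.225% held it and 5.79% held it with at most 1 letter changed, so most windows lack these letters and nothing follows about a factor.

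Of the 6 cartilage and bone ranges, *Ptch1* and *Hhip* were highest in *Ifitm5*-high cells, and *Ptch1* and *Gli1* were lowest in *Col10a1*-high cells, which had most *Ihh*. *Ptch1*, which encodes the receptor and is itself induced by the pathway, was 335 CPM (305 to 366) in *Ifitm5*-high cells at day 10 and 377 CPM (359 to 396) at day 14. Cells high for *Aspn* and *Cnmd* followed with 211 and 233 CPM, then *Cnmd*-high cells with 174 and 236 CPM. At day 14 the intervals of these 2 ranges overlapped. *Aspn*-high cells had 103 and 127 CPM, and cells high for *Cnmd* and *Col10a1* 104 and 114 CPM. *Col10a1*-high cells were the lowest of these 6 ranges with 68.3 CPM (62.9 to 74.0) and 73.1 CPM (70.0 to 76.3), a log2 ratio over *Cnmd*-high cells of -1.35 at day 10 and -1.69 at day 14. In hematopoietic cells *Ptch1* was 1.92 CPM on day 7 and 15.7 CPM on day 14.

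*Gli1* (ENSMUSG00000025407, chr10:127329882-127341974, minus strand), a transcription factor gene and marker of skeletal stem cells, gave 35, 1027, and 1508 UMIs at day 7, day 10, and day 14, with at most 4 in a cell. Cells high for *Aspn* and *Cnmd* had 21.4 CPM (18.4 to 24.8) and 16.2 CPM (13.2 to 19.6) at day 10 and day 14, and *Ifitm5*-high cells had 19.3 CPM (12.7 to 28.1) and 22.9 CPM (18.6 to 27.9), which overlapped on each day. *Aspn*-high cells had 11.5 CPM (10.2 to 13.0) and 13.4 CPM (12.4 to 14.4), and *Cnmd*-high cells 8.26 CPM (7.45 to 9.14) and 9.53 CPM (8.47 to 10.7). The order thus ran from the bone and mixed ranges to *Cnmd*-high cells. In *Col10a1*-high cells it was far lower, with 0.913 CPM (0.394 to 1.80) from 8 UMIs at day 10 and 1.92 CPM (1.44 to 2.49) from 55 UMIs at day 14, and the log2 ratio over *Cnmd*-high cells was -3.18 (-4.40 to -2.18) and -2.31 (-2.76 to -1.89). Cells high for *Cnmd* and *Col10a1* had 1.26 and 1.99 CPM, with intervals that overlapped those of *Col10a1*-high cells. Thinned to 2000 UMIs, 5.24% of cells high for *Aspn* and *Cnmd*, 2.27% of *Aspn*-high cells, and 0.197% of *Col10a1*-high cells had a *Gli1* UMI at day 10, against 24.6%, 13.9%, and 1.50% before thinning and 0 of 6244 hematopoietic cells at day 7.

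The level of *Hhip* was highest in *Ifitm5*-high cells, while most of its UMIs lay outside them. It reached 229 CPM (205 to 256) in *Ifitm5*-high cells at day 10 and 339 CPM (322 to 357) at day 14. *Aspn*-high cells had 7.54 CPM (6.49 to 8.72) and 8.91 CPM (8.10 to 9.77), so the log2 ratio of *Ifitm5*-high over *Aspn*-high cells was 4.93 (4.66 to 5.20) at day 10 and 5.25 (5.10 to 5.41) at day 14. Although *Ifitm5*-high cells made up 1.23% and 2.83% of matrix-producing cells, they held 27.2% (24.6% to 29.8%) and 39.0% (37.4% to 40.6%) of the *Hhip* UMIs. Thinned to 2000 UMIs, 22.1% (13.4% to 33.0%) and 29.9% (24.5% to 35.7%) of them had a UMI, against 51.9% and 57.8% before thinning. A further 44.6% and 34.9% of the *Hhip* UMIs lay in cells below all thresholds, at 30.9 and 56.0 CPM. Within these cells at day 14, split before thinning, those with an *Hhip* UMI had 143 CPM of *Ifitm5* and those without had 49.4 CPM. For *Ibsp*, which encodes bone sialoprotein, the values were 34775 and 24004 CPM. Along *Ifitm5* at day 14 *Hhip* was 10.4 CPM in cells without *Ifitm5*, 36.2 CPM under 300 CPM, 169 CPM at 300 to under 1000 CPM, 305 CPM at 1000 to under 3000 CPM, and 445 CPM at 3000 to under 10000 CPM.

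In *Cnmd*-high cells *Hhip* was 1.98 CPM (1.59 to 2.43) at day 10 and 7.17 CPM (6.26 to 8.18) at day 14, and in *Col10a1*-high cells 1.26 CPM (0.627 to 2.25) and 7.60 CPM (6.62 to 8.67). *Ifitm5* in these ranges was 4.70 and 9.66 CPM, and 5.71 and 7.14 CPM. For each *Ifitm5* UMI there were 0.139 *Hhip* UMIs in *Ifitm5*-high cells at day 14, against 0.742 in *Cnmd*-high and 1.06 in *Col10a1*-high cells. The ratio therefore differed between ranges, and the ranges were themselves set with *Ifitm5*.

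**Figure D2:**
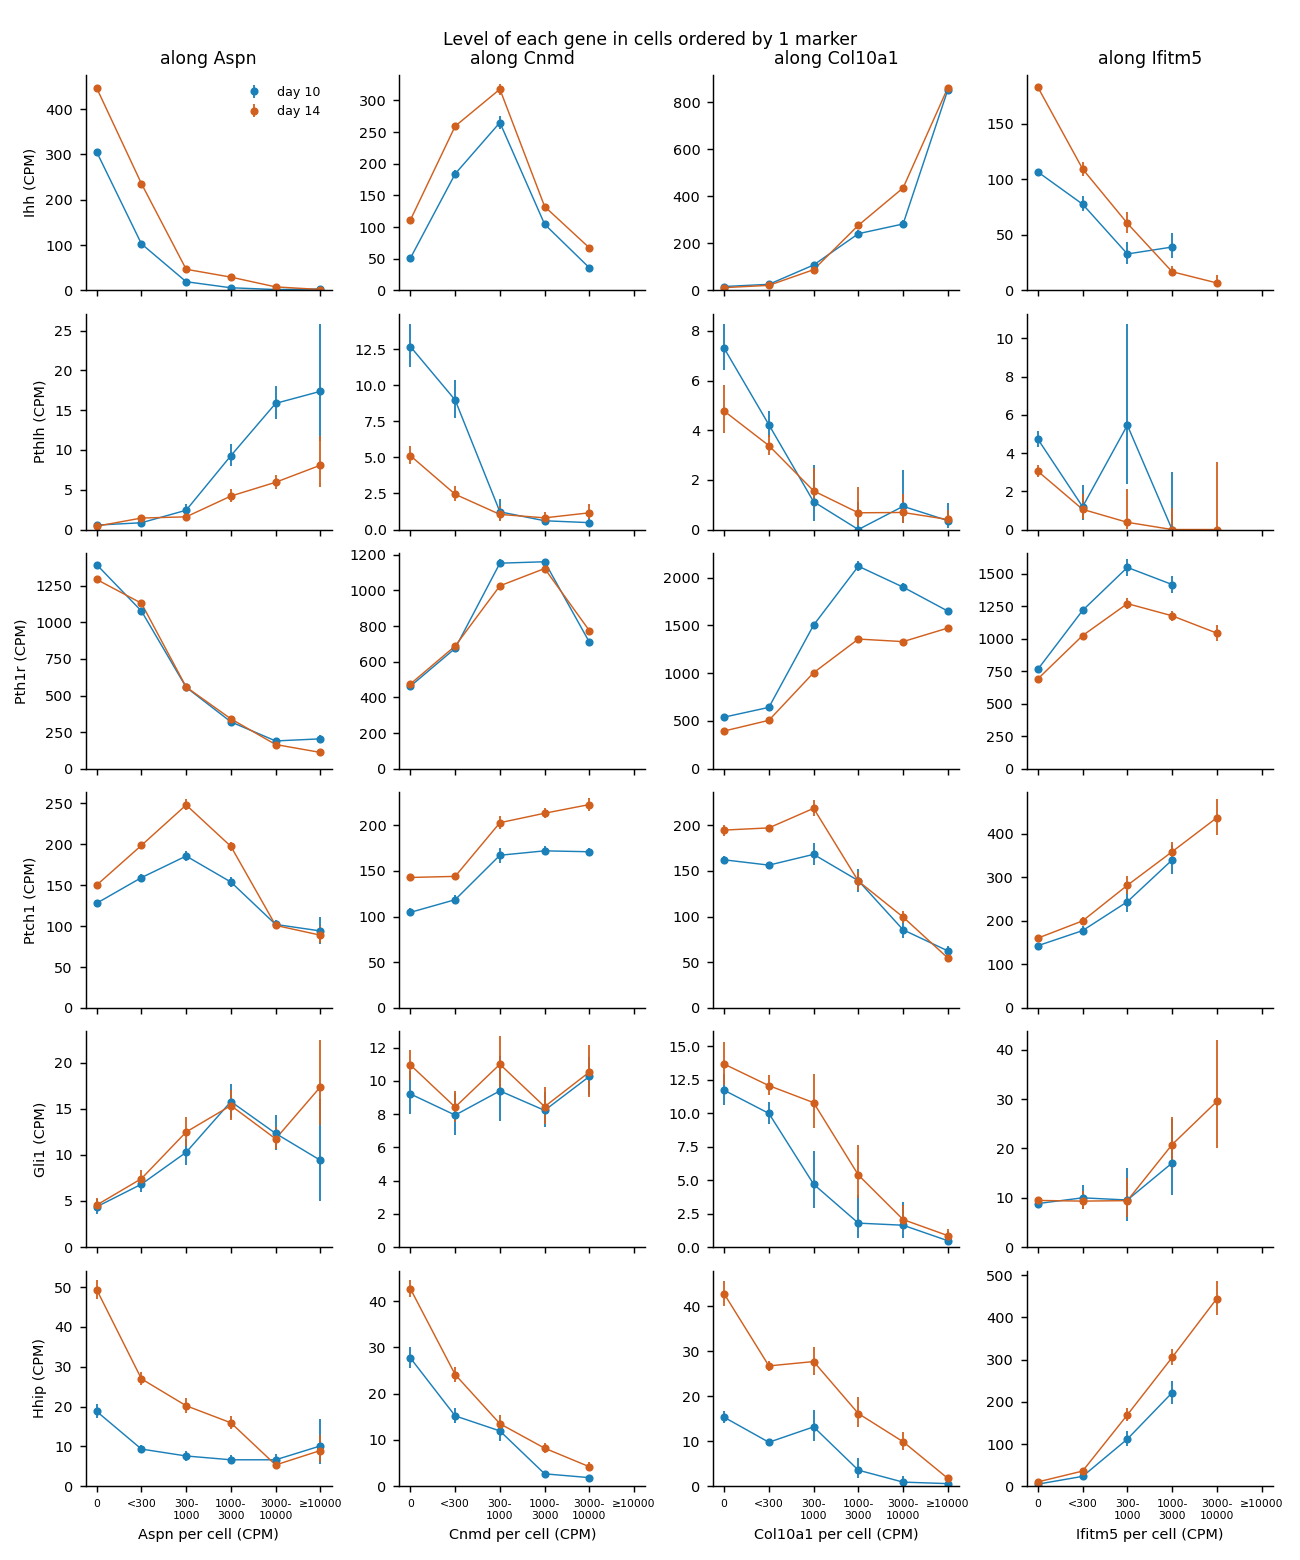
Level (CPM, linear axis from 0) of 6 genes in matrix-producing cells ordered by the level of *Aspn*, *Cnmd*, *Col10a1*, or *Ifitm5* per cell, at day 10 and day 14, with exact Poisson 95% intervals. Steps with under 20 cells are left out. *Ihh* climbs along *Col10a1* while *Gli1* declines, and *Ptch1* declines there only from 1000 CPM of *Col10a1* on. *Ptch1* and *Hhip* climb along *Ifitm5*.

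*Gli3* (ENSMUSG00000021318, chr13:15463235-15730026, plus strand), whose protein is the main GLI repressor, had its lowest level where *Ptch1* and *Hhip* had their highest. It had 30.8 and 26.6 CPM in *Aspn*-high cells at day 10 and day 14, 25.0 and 19.8 CPM in *Cnmd*-high cells, and 13.9 and 14.0 CPM in *Col10a1*-high cells. In *Ifitm5*-high cells it had 4.30 CPM (1.58 to 9.35) from 6 UMIs and 11.7 CPM (8.68 to 15.4) from 50 UMIs, with a log2 ratio over *Aspn*-high cells of -2.84 and -1.18. At day 14 its interval overlapped that of *Col10a1*-high cells. *Gli2* (ENSMUSG00000048402, chr1:118834132-119053619, minus strand), whose protein is the main activator, was sparse, with 395 and 484 UMIs at day 10 and day 14. Its level ran from 1.37 CPM (12 UMIs) in *Col10a1*-high cells to 5.73 CPM (8 UMIs) in *Ifitm5*-high cells at day 10. At day 14 it ran from 0.426 CPM (3 UMIs) in cells high for *Cnmd* and *Col10a1* to 7.49 CPM (32 UMIs) in *Ifitm5*-high cells. The day 10 log2 ratio of *Ifitm5*-high over *Aspn*-high cells was 0.68 (-0.58 to 1.72), so the top of the order was not resolved on that day.

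**Figure D3:**
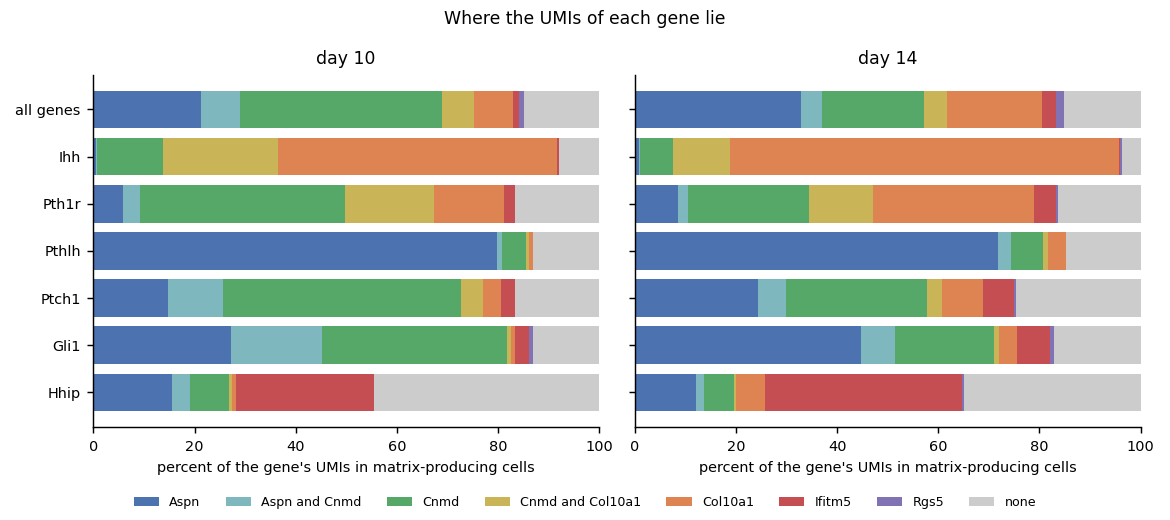
Percent of each gene's UMIs in matrix-producing cells that lie in each cell range, at day 10 and day 14, with the share of all UMIs in the top bar. *Ihh* is 77.9% and 88.1% in both *Col10a1* ranges together, *Pthlh* 79.7% and 71.8% in *Aspn*-high cells, and *Hhip* 27.2% and 39.0% in *Ifitm5*-high cells.

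Whether sending and response met in the same cell was examined after thinning each cell to 2000 UMIs. Within both *Col10a1* ranges at day 14, *Ptch1* was seen in 11.5% (9.65% to 13.7%) of 1022 cells with *Ihh* against 18.1% (15.9% to 20.6%) of 1053 cells without it. *Pth1r* had the opposite difference there, with 84.4% (82.1% to 86.6%) of 1022 cells with *Ihh* against 72.6% (69.8% to 75.3%) of 1053 cells without it. At day 10 the *Ptch1* shares were 11.0% with *Ihh* and 18.0% without, and the *Pth1r* shares 89.2% and 84.0%, so the differences had the same direction but their intervals met or overlapped. The *Col10a1* ranges were also split by any *Ihh* UMI before thinning, which gives other sets of cells and depends on depth. In that split, cells with *Ihh* had more *Col10a1* (21210.2 against 9616 CPM at day 14) and less *Hhip* (2.35 against 27.1 CPM). In *Cnmd*-high cells *Pth1r* was in 88.5% (81.1% to 93.7%) of 113 cells with *Ihh* against 61.0% (58.9% to 63.1%) of 2198 cells without it at day 10, and in 89.9% against 56.4% at day 14. *Ptch1* there was in 24.8% against 27.0% at day 10, and in 24.2% against 35.0% at day 14, with overlapping intervals on both days.

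After thinning, the ligands were not seen together: of 64 cells with a *Pthlh* UMI at day 10 and 48 at day 14, 0 had an *Ihh* UMI, where the share among cells without *Pthlh* was 8.96% and 13.4%. Counts of 0 in so few cells allow shares of up to 4.69% and 6.25%. Before thinning 253 and 273 cells had a *Pthlh* UMI, and the share of them with *Ihh* was not taken. Within *Aspn*-high cells, where most of the *Pthlh* cells lay, cells without *Pthlh* had *Ihh* in 0.261% and 1.10%, so a difference was not detectable there. The receptor was also less frequent in *Pthlh* cells, with *Pth1r* in 14.1% (6.64% to 25.0%) of 64 cells with *Pthlh* against 54.5% (53.3% to 55.7%) of 6430 cells without it at day 10. Within *Aspn*-high cells alone the *Pth1r* shares were 15.1% and 27.5% at day 10 and 13.5% and 25.8% at day 14, with overlapping intervals.

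Cells with 1 response gene more often held another in the same range. Among *Aspn*-high cells at day 14, *Ptch1* was in 30.8% (22.3% to 40.5%) of 107 cells with *Gli1* against 15.2% (14.0% to 16.5%) of 3462 cells without it, and in 61.5% (44.6% to 76.6%) of 39 cells with *Hhip* against 15.2% (14.0% to 16.4%) of 3530 cells without it. At day 10 the shares were 25.0% against 14.3% for *Gli1*, with overlapping intervals, and 45.5% against 14.1% for *Hhip*. In *Ifitm5*-high cells at day 14, *Ptch1* was in 61.7% (50.3% to 72.3%) of 81 cells with *Hhip* against 32.6% (26.0% to 39.8%) of 190 cells without it. In *Cnmd*-high cells *Ptch1* was in 52.9% of cells with *Gli1* and 26.5% of those without at day 10, and in 58.6% and 33.8% at day 14.

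**Figure D4:**
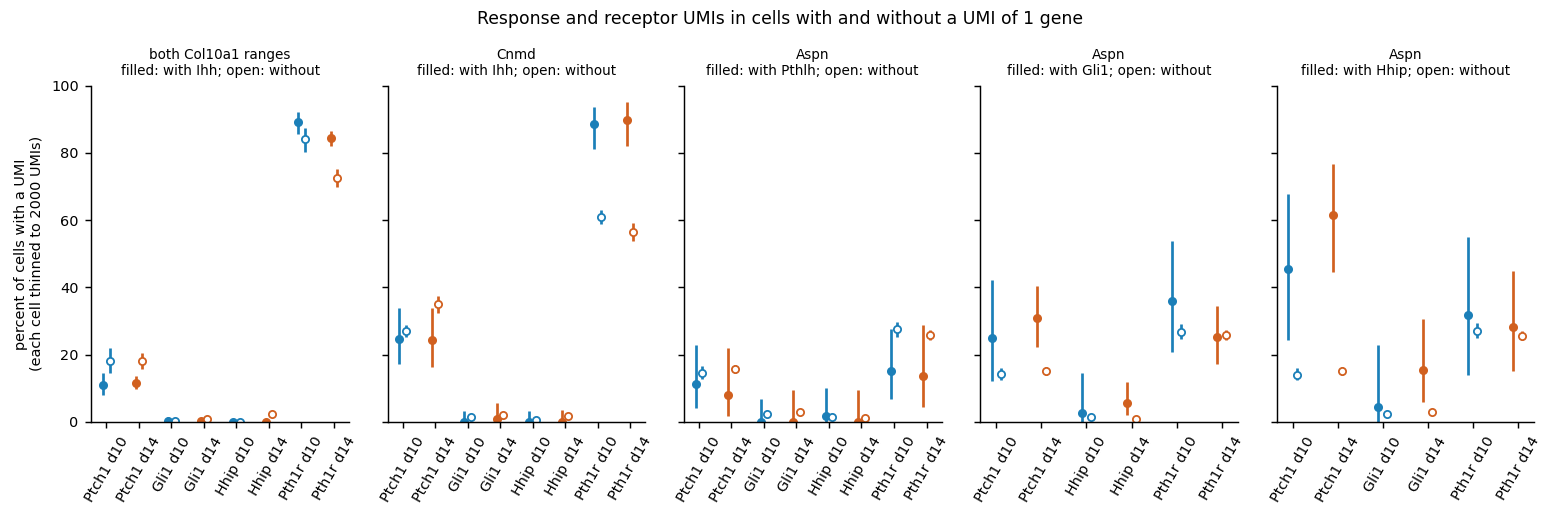
Percent of cells with a UMI of *Ptch1*, *Gli1*, *Hhip*, or *Pth1r*, each cell thinned to 2000 UMIs, among cells with (filled) and without (open) a UMI of the gene named above the panel, within 1 set of cells at day 10 (d10) and day 14 (d14). Bars are Clopper-Pearson 95% intervals. Cells with *Ihh* have more *Pth1r* and, in the *Col10a1* ranges, less *Ptch1*, and *Aspn*-high cells with *Hhip* have more *Ptch1*.

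Because the study follows *Postn*+ progenitors and relates them to *Gli1*+ stem cells, the members were also read along *Postn*, *Ctsk*, and *Igf1*. *Gli1* was highest at middle levels of *Postn*. At day 10 it was 3.67 CPM in cells without *Postn*, 11.9 CPM at 300 to under 1000 CPM, 12.5 CPM at 1000 to under 3000 CPM, and 8.50 CPM at 3000 to under 10000 CPM of *Postn*, and at day 14 the same steps had 5.16, 14.7, 12.9, and 7.49 CPM. *Ptch1* had a similar course, with 232 CPM at 300 to under 1000 CPM of *Postn* at day 14 and 69.9 CPM at 3000 to under 10000 CPM. *Aspn*-high cells were also split by a *Gli1* UMI before thinning. At day 14, cells with a *Gli1* UMI had 2166 CPM of *Postn* and cells without had 3055 CPM, and at day 10 the values were 3431 and 4115 CPM. Along *Ctsk*, *Gli1* went from 4.07 CPM in cells without *Ctsk* to 13.2 CPM at 1000 to under 3000 CPM at day 10, and from 4.44 to 13.8 CPM at day 14. Along *Igf1* it went from 6.57 CPM in cells without *Igf1* to 19.8 CPM at 3000 to under 10000 CPM at day 10, and from 7.02 to 21.7 CPM at day 14. *Ptch1* had another course there, higher in a middle step and lowest or near its lowest in the last. Along *Ctsk* it was 141 CPM in cells without *Ctsk*, 158 CPM under 300 CPM, and 88.1 CPM in the last step at day 10. At day 14 these *Ctsk* steps had 137, 209, and 95.9 CPM. Along *Igf1* it was 149 CPM in cells without *Igf1*, 160 CPM at 1000 to under 3000 CPM, and 128 CPM in the last step at day 10. At day 14 it was 173 CPM without *Igf1*, 191 CPM under 300 CPM, and 144 CPM in the last step.

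*Ptch1* was low in cells with much of a contractile or a tendon gene. Along *Acta2*, a gene of smooth muscle and myofibroblasts, *Ptch1* was 168 CPM in cells without *Acta2* and 27.8 CPM at 3000 to under 10000 CPM at day 10, and 195 and 38.5 CPM at day 14. These steps hold pericyte-like *Rgs5*-high cells too, which had low *Ptch1*, and their part in the *Acta2* steps was not tested. Along *Scx*, a tendon transcription factor gene, it was 166 CPM in cells without *Scx* and 43.6 CPM at 300 to under 1000 CPM at day 10, and 193 and 58.5 CPM at day 14. The other response genes differed in these *Scx* steps. *Gli1* was 9.20 and 7.38 CPM at day 10, with overlapping intervals, and 9.50 and 9.52 CPM at day 14. *Hhip* was 11.3 and 3.09 CPM, and 33.1 and 0.712 CPM. *Pthlh* in the same *Scx* steps was 3.13 and 14.2 CPM at day 10, and 1.69 and 9.35 CPM at day 14. Along *Mki67*, which marks cycling cells, *Ihh* was 109 CPM in cells without a UMI and 1.74 CPM in the 101 cells at 300 to under 1000 CPM at day 10, and 175 and 12.8 CPM at day 14. *Ptch1* in those steps was 147 and 212 CPM at day 10, and 169.8 and 249.8 CPM at day 14.

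The members were then set against all genes with a mean of at least 5 CPM over the 2 ranges compared, counting those at least 2-fold apart. Members under that mean are not counted, and a count is a description of 1 library. In *Aspn*-high over *Cnmd*-high cells, *Pthlh* was higher and *Ihh* and *Pth1r* lower of 7 members compared at day 10, where 19.4% of 9415 genes passed in either direction. At day 14, *Ihh* and *Pth1r* were lower and 0 of 7 members higher, with 19.5% of 9323 genes past 2-fold. *Pthlh* was under the minimum mean at day 14 and so not among the 7, and its log2 ratio was 2.79 (2.22 to 3.42) from 305 and 27 UMIs. The median log2 ratio of all genes was 0.31 on day 10 and 0.31 on day 14. For *Ihh* it was -4.03 (-4.47 to -3.63) and -3.64 (-3.85 to -3.44), and for *Pth1r* -1.89 (-1.94 to -1.85) and -2.19 (-2.22 to -2.15). *Ihh* and *Pth1r* thus separated cartilage from the progenitor range on both days, and *Ptch1* did so to a lesser degree, with -0.76 and -0.90. *Pthlh* differed in the other direction on both days, with 4.98 (4.39 to 5.64) at day 10, though it was not compared at day 14.

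Toward hypertrophy *Ihh* was higher and *Ptch1* lower, while *Hhip* in *Col10a1*-high over *Cnmd*-high cells had intervals that held 0, with a log2 ratio of -0.66 (-1.71 to 0.25) at day 10 and 0.08 (-0.19 to 0.36) at day 14. In cells high for *Cnmd* and *Col10a1* over *Cnmd*-high cells, *Ihh* and *Pth1r* were the 2 higher of 5 members compared at day 10 and of 6 at day 14, and *Ptch1* and *Gli1* were lower at day 14. Of all genes 7.52% of 8702 passed at day 10 and 5.56% of 8694 at day 14, with a median log2 ratio of -0.08 and -0.08. In *Col10a1*-high over *Cnmd*-high cells, *Ihh* was higher and *Ptch1* lower of 5 members at day 10, and *Gli1* joined *Ptch1* among 7 at day 14. The background was 19.2% of 9094 genes and 15.8% of 8986, with a median log2 ratio of 0.12 and 0.05. *Ihh* had 4.45 (4.37 to 4.53) and 3.69 (3.61 to 3.76) on this scale.

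In bone-forming cells *Ptch1*, *Pth1r*, and the decoy gene *Hhip* were higher than in the progenitor range, and *Smo* was lower by less than 2-fold, with a log2 ratio of -0.57 (-0.97 to -0.19) at day 10 and -0.93 (-1.18 to -0.69) at day 14. For *Ifitm5*-high over *Aspn*-high cells, *Ihh*, *Ptch1*, *Hhip*, and *Pth1r* were the 4 higher of 8 members compared on each day, and *Gli3* was lower on each. *Pthlh* counts as lower at day 10 by its 0 UMIs. The background was 24.5% of 9363 genes at day 10 and 23.1% of 9285 at day 14, and the median log2 ratio was -0.35 and -0.36. The log2 ratio of *Ptch1* was 1.70 (1.55 to 1.84) and 1.57 (1.49 to 1.65), that of *Pth1r* 2.70 and 2.57, and that of *Ihh* 4.09 (3.49 to 4.69) and 1.71 (1.28 to 2.13). At day 14 both *Ihh* levels, 14.3 and 4.35 CPM, were under the 20.9 CPM of hematopoietic cells in that library. *Gli1* had 0.74 (0.12 to 1.32) and 0.78 (0.46 to 1.09), short of 2-fold.

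**Figure D5:**
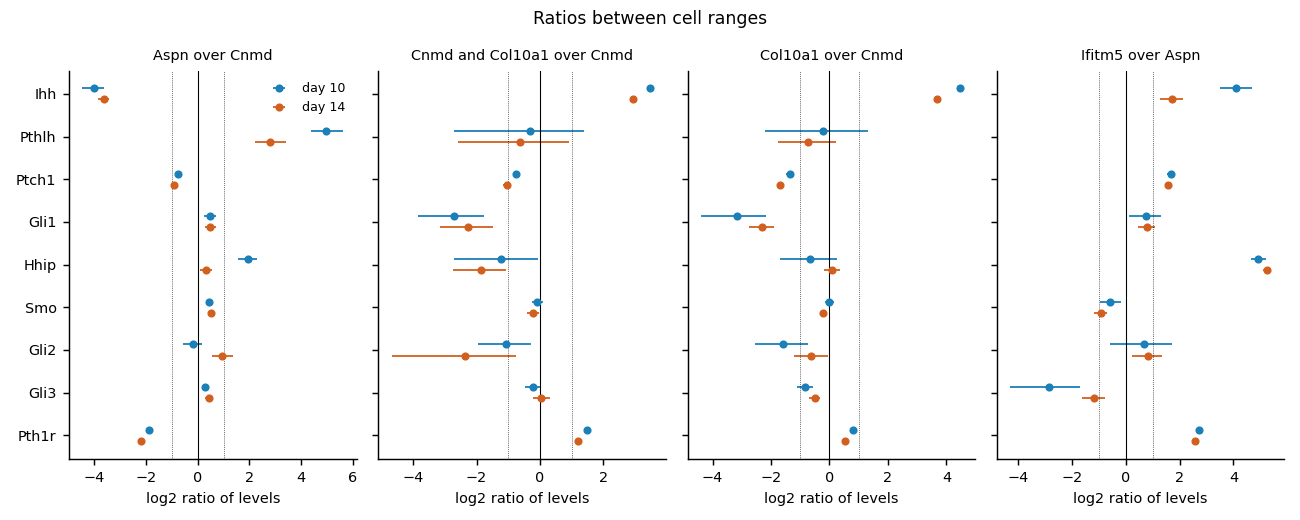
Log2 ratio of levels between cell ranges for the 9 genes at day 10 and day 14, with exact binomial 95% intervals for counting error. Dotted lines mark 2-fold. *Pthlh* has no point for *Ifitm5* over *Aspn*, where the first count is 0, and *Hhip* is at 4.93 and 5.25 there.

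Between the day 14 and the day 10 library, fewer genes were 2-fold apart within a range than between ranges. In *Aspn*-high cells 1.6% of 9609 genes were at least 2-fold apart, and of 7 members compared *Pthlh* was lower. In *Ifitm5*-high cells the share was 4.52% of 8569 genes, and of 8 members *Gli3* was higher, with a log2 ratio of 1.44 (0.22 to 2.96), and *Ihh* lower, with -1.30 (-1.86 to -0.73). Their day 14 *Ihh* level, 14.3 CPM, was under that of hematopoietic cells in the same library (20.9 CPM). No member compared passed in *Cnmd*-high cells (background 1.33%), in cells high for *Cnmd* and *Col10a1* (background 2.33%), or in *Col10a1*-high cells (background 1.62%). *Hhip* was under the minimum mean in these 3 ranges and not compared, and its log2 ratio was 1.86 (1.50 to 2.23) in *Cnmd*-high, 1.24 (-0.23 to 2.91) in cells high for *Cnmd* and *Col10a1*, and 2.60 (1.73 to 3.62) in *Col10a1*-high cells. Under 2-fold, the log2 ratio of *Ptch1* was 0.44 (0.39 to 0.48) in *Cnmd*-high and 0.30 (0.23 to 0.36) in *Aspn*-high cells, and that of *Hhip* in *Ifitm5*-high cells 0.57 (0.39 to 0.75). *Pth1r* had -0.19 (-0.22 to -0.16) in *Col10a1*-high and -0.33 (-0.41 to -0.26) in *Ifitm5*-high cells. Neutrophil genes, which should be absent from all these cells, summed to 1.26 CPM in *Col10a1*-high cells at day 10 and 1336 CPM at day 14, and their part in the differences between libraries was not tested.

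Of 30 other genes listed for the 2 pathways, 19 for hedgehog and 11 for PTHrP, several that release or bind the ligand differed between ranges. In *Col10a1*-high over *Cnmd*-high cells, 3 of 19 listed genes compared were at least 2-fold higher and 4 lower at day 10, and 3 and 4 of 19 at day 14, where 19.2% and 15.8% of all genes passed in either direction. *Scube3*, a secreted factor of a family that aids hedgehog release, was 4.44 CPM in *Cnmd*-high and 54.3 CPM in *Col10a1*-high cells at day 10, and 4.46 and 56.6 CPM at day 14. *Disp1*, needed to release lipid-modified hedgehog, was 6.33 CPM in *Cnmd*-high cells and 17.7 CPM in cells high for both markers at day 10, and 6.65 and 22.1 CPM at day 14. *Scube1* in these 2 ranges was 61.2 and 162 CPM at day 10, while *Scube2* had 18.8 and 3.79 CPM.

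The co-receptor genes *Cdon*, *Boc*, and *Gas1* were lower in *Col10a1*-high than in *Cnmd*-high cells at day 10. At day 10 *Cdon* was 19.1 CPM in *Aspn*-high, 21.1 CPM in *Cnmd*-high, 7.99 CPM in *Col10a1*-high, and 3.58 CPM in *Ifitm5*-high cells. *Boc* in the same ranges was 21.0, 10.7, 3.65, and 31.5 CPM, and *Gas1* 111, 12.1, 3.77, and 7.16 CPM. Of these 4 ranges *Gas1* was highest in *Aspn*-high cells, and it was 128 CPM in pericyte-like *Rgs5*-high cells. At day 14 *Gas1* was 107, 11.2, 9.06, and 6.08 CPM, and the intervals of *Cnmd*-high and *Col10a1*-high cells overlapped. The other hedgehog ligand genes were close to 0, with 1 and 2 UMIs of *Shh* and 0.273 and 0.424 CPM of *Dhh* in matrix-producing cells at day 10 and day 14. In *Ifitm5*-high over *Aspn*-high cells 3 of 18 listed genes were higher and 7 lower at day 10, and 3 and 8 of 18 at day 14. Of all genes 24.5% and 23.1% passed there, 488 higher and 1802 lower at day 10 and 459 higher and 1684 lower at day 14. Among those lower were *Evc* and *Evc2*, whose proteins act with SMO at the cilium, with 12.1 and 18.6 CPM in *Aspn*-high and 3.04 and 8.66 CPM in *Ifitm5*-high cells at day 14.

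On the PTHrP side, *Mef2c* and *Runx2*, transcription factor genes of hypertrophy, were higher in the *Col10a1* ranges and in *Ifitm5*-high cells than in *Cnmd*-high cells. *Mef2c* was 277 CPM in *Cnmd*-high, 935 CPM in cells high for both markers, 812 CPM in *Col10a1*-high, and 961 CPM in *Ifitm5*-high cells at day 10. *Runx2* was 79.4, 128, 239, and 178 CPM in these ranges. *Zfp521*, a target of PTHrP in chondrocytes, was 38.6 CPM in *Aspn*-high, 24.2 CPM in *Cnmd*-high, 9.40 CPM in cells high for both markers, and 13.4 CPM in *Col10a1*-high cells. *Gnas*, which encodes the G protein subunit that couples to PTH1R, was between 1243 and 1472 CPM in the 6 cartilage and bone ranges at day 10. *Pth* had 0 and 2 UMIs in matrix-producing cells at day 10 and day 14. In *Aspn*-high over *Cnmd*-high cells 1 of 17 listed genes was higher and 2 lower at day 10, and 3 and 2 of 18 at day 14, beside 19.4% and 19.5% of all genes. In cells high for both markers over *Cnmd*-high cells 4 were higher and 3 lower of 18 at day 10, and 4 and 5 of 18 at day 14, beside 7.52% and 5.56% of all genes. These counts describe the list and were not tested.

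Genes with a like pattern were sought over 15 groups of cells, the combinations of the 4 markers at day 10 and day 14 with at least 50 cells, among 6741 genes. The 5 nearest to *Ihh* by Pearson's r were *Wnk4* (r = 0.98), *Dhx58os* (r = 0.98), *Cst3* (r = 0.97), *F5* (r = 0.97), *Asap2* (r = 0.97). For *Pthlh* they were *Cnn1* (r = 0.95), *Arpc5* (r = 0.92), *Elovl5* (r = 0.91), *Tspan18* (r = 0.91), *Psmd1* (r = 0.91), and for *Ptch1* *Notum* (r = 0.93), *Eef2kmt* (r = 0.92), *Dnajc9* (r = 0.90), *Mgat5* (r = 0.89), *Fancc* (r = 0.89). Among the 5 nearest to *Gli1* were *Scamp2* (r = 0.95), *Gsn* (r = 0.94), *Boc* (r = 0.93), and *Lmo7* (r = 0.93), where *Boc* is a hedgehog co-receptor gene. For *Hhip* they were *Bmp3* (r = 0.99), *Kazald1* (r = 0.98), *Hs3st6* (r = 0.98), *Fign* (r = 0.97), *Hspb2* (r = 0.97), and for *Pth1r* *Panx3* (r = 0.98), *Atp2b1* (r = 0.97), *Smim14* (r = 0.96), *Cpe* (r = 0.96), *Kank1* (r = 0.96). The groups share 2 libraries and were formed with the markers, so r is a description only. Among the members themselves, *Gli1* and *Ptch1* had r = 0.82, *Hhip* and *Ptch1* 0.74, *Ihh* and *Gli1* -0.87, *Ihh* and *Ptch1* -0.65, and *Pthlh* and *Pth1r* -0.72.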

How the data were processed

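Droplet single-cell libraries were made from sorted callus cells with a 3′ kit (version 2 in the labels, another version in the study's methods), 1 library for each of day 7, day 10, and day 14. The authors deposited the UMI counts per gene and cell as a filtered matrix for each library, aligned to mm10 with Cell Ranger (3.0 in the submitters' processing notes, software 3.1.0 in the matrix headers), and these counts had not been normalized. Empty droplets were thus removed before deposit, and no column of the tables lacked a sample (0 unmapped).

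Cells with 500 to 5000 genes, at most 10% mitochondrial UMIs, and at most 5% hemoglobin UMIs were kept, following the limits of the study, and no doublet caller was run, so doublets were limited only by the upper number of genes. Matrix-producing cells were those with more UMIs of 9 matrix genes than of 11 hematopoietic genes. Counts were summed over the cells of a range and divided by the summed UMIs, per 1000000 UMIs (CPM). With 1 library a day no test was possible, and intervals cover counting error only, at 95%. A count of 0 was read as up to 3 counts. To compare shares of cells with a UMI, each cell was thinned to 2000 UMIs (seed 0) and shallower cells were left out. Genes with a mean of at least 5 CPM over both ranges were counted as different at 2-fold, and likeness was Pearson's r of log2(CPM + 10) over groups of at least 50 cells for genes with at least 20 CPM in 1 group. The ratio function was tested on simulated data. Python 3.11.15, numpy 2.4.6, scipy 1.17.1, pandas 2.3.3, and matplotlib 3.10.9 were used. Total UMIs as the denominator let abundant genes move every other level, so a denominator without genes above 1% of the UMIs of a range was tried, among the other settings given with the closing observations.

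The genes named are the 9 members, the 4 markers of the division, 30 listed pathway genes, and the 5 genes most like each of *Ihh*, *Pthlh*, *Ptch1*, *Gli1*, *Hhip*, and *Pth1r*, of which some are not reported here. Other genes were named as markers of listed cell types or as further axes. The members and lists were chosen with earlier results of these data known. Gene positions are those of the GENCODE annotation on GRCm38, and promoter windows are from RefSeq on GRCm38.p6, where 8 of 9 members matched.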

Additional observations from a re-analysis of the deposited data

Results flagged for a closer look

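Hematopoietic cells were no subject of the comparisons, and they held more than 3 UMIs of some members. At day 7 they had 0.419 CPM of *Ihh*, 1.92 CPM of *Ptch1*, 0.659 CPM of *Smo*, 0.120 CPM of *Gli3*, and 3.11 CPM of *Pth1r*. At day 14 they had 20.9 CPM of *Ihh*, 15.7 CPM of *Ptch1*, 8.70 CPM of *Smo*, and 79.2 CPM of *Pth1r*. Each of these 9 values lies under the level of the same gene in the matrix-producing cells of its library.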

How the results depend on the processing

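Without an upper limit on genes per cell, the share of *Ihh* UMIs in both *Col10a1* ranges was 76.4% at day 10 and 87.5% at day 14, that of *Pthlh* in *Aspn*-high cells 65.9% at day 10, the log2 ratio of *Pth1r* in cells high for *Cnmd* and *Col10a1* over *Cnmd*-high cells 1.34 and 1.04, and that of *Hhip* in *Ifitm5*-high over *Aspn*-high cells 5.02 at day 14. With at most 4000 genes per cell the *Ihh* shares were 80.2% and 92.0%, the *Pth1r* ratios 1.68 and 1.49, and the *Hhip* ratio at day 14 5.58. With the marker threshold at 500 CPM the *Ihh* shares were 79.8% and 90.1%, the *Pthlh* share at day 10 85.2%, the *Pth1r* ratios 1.28 and 1.04, and the *Hhip* ratios 4.21 and 4.77. At 2000 CPM the *Ihh* shares were 74.2% and 85.1%, the *Pthlh* shares 63.2% and 64.5%, the *Pth1r* ratios 1.67 and 1.47, and the *Hhip* ratio at day 14 5.84. Without genes above 1% of the UMIs in the denominator the *Pth1r* ratios were 1.54 and 1.31 and the *Hhip* ratio at day 14 5.43, and the mean of single cells gave a *Pth1r* ratio of 1.55 at day 10. These shares and ratios kept their direction in each setting run, and the cause of the moves was not tested. The ratio of *Hhip* in *Aspn*-high over *Cnmd*-high cells at day 14 changed sign, from 0.31 to -0.13, with at most 4000 genes per cell. A hematopoietic limit 5 times stricter left 74 of 74 shares and ratios within their intervals, and so did leaving out cells whose barcode is in another library, a setting chosen after seeing the data. The other settings moved more of these results past their intervals. Those were 23 of 74 without an upper limit on genes and 28 of 72 with at most 4000 genes. With the threshold at 500 and 2000 CPM they were 19 of 74 and 21 of 72. The changed denominator moved 17 of 70, and the mean of single cells 15 of 70.

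The number of genes past 2-fold rose without a minimum level (from 1828 to 5278 for *Aspn*-high over *Cnmd*-high cells at day 10) and was 925 there at 20 CPM. Shares of cells with a UMI followed the depth to which cells were thinned: *Ihh* in *Col10a1*-high cells at day 10 was 37.0% at 1000 UMIs and 67.2% at 4000. Of the 5 genes most like *Pthlh*, 2 remained with log2(CPM + 1) and 1 with day 14 alone. No paired analysis was possible because each day has 1 library and no test was made. Depth limits *Pthlh*, *Gli1*, and *Gli2* most, which had few UMIs per cell.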

Other observations

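The cells below all thresholds were a mixed set. They had 165 CPM of *Ptch1* at day 10 and 277 CPM at day 14, and 30.9 and 56.0 CPM of *Hhip*, both next in order to *Ifitm5*-high cells at day 14. Their *Ihh* was 54.5 and 40.9 CPM, and their *Pthlh* 3.89 and 2.71 CPM, second to *Aspn*-high cells. The osteogenic list, chiefly *Ibsp*, and the cartilage list (18842 and 13906 CPM) were both present in them.

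Pericyte-like *Rgs5*-high cells had low *Ptch1* and *Hhip*. *Ptch1* was 14.9 CPM at day 10 and 55.4 CPM at day 14, *Hhip* 0 and 10 UMIs, and *Pthlh* 0 and 0 UMIs. *Gli1* was 7.94 CPM (3.43 to 15.6) and 4.54 CPM (2.27 to 8.13), from 8 and 11 UMIs, while *Gli3* was 27.8 CPM (18.5 to 40.2) and 29.3 CPM (22.9 to 37.0) and the co-receptor gene *Gas1* 128 and 108 CPM. Neutrophil genes summed to 5609 CPM in these cells at day 14 and 5.95 CPM at day 10, and their part in the values was not tested.

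Few cells carried most of the rarer transcripts. The 1% of matrix-producing cells with the most UMIs of a gene held 56.7% of *Pthlh* UMIs at day 10 and 58.8% at day 14, 60.9% and 50.4% of *Hhip*, 29.9% and 24.0% of *Ihh*, and 17.4% and 16.6% of *Gli1*. A single cell held up to 146 *Ihh* UMIs.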
